A study of Homo sapiens with 16 samples.

Results

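The plasminogen activator system was followed through 7 genes, PLAU, PLAT, PLAUR, SERPINE2, SERPINB2, SERPINF1 and SERPINH1, picked by name out of the 60649 genes counted. All 7 were found and all 7 had enough reads to be among the 19103 genes tested. They were measured by RNA sequencing in ASC52telo, a line of mesenchymal stromal cells (MSCs) from human adipose tissue that was made immortal with telomerase. There were 16 libraries in 4 groups of 4 biological replicates. MmC-/GDF11- were young MSCs with neither agent, and MmC-/GDF11+ were young MSCs given the cytokine GDF11 at 10 ng/mL over 10 days. MmC+/GDF11- were MSCs made senescent with the DNA-damaging drug mitomycin C (MmC) at 1.5 µg/mL for 18 h, and MmC+/GDF11+ had the same MmC treatment and then GDF11 at 10 ng/mL over 10 days. All groups shared the cell line and its wild-type label, so the replicates do not cover differences between donors.

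Plasminogen is a circulating proenzyme that is cut into plasmin, a protease that dissolves fibrin and other matrix proteins and can activate matrix metalloproteinases. The cut is made by urokinase (PLAU), which acts mainly on the cell surface where it is held by its receptor (PLAUR), and by tissue-type plasminogen activator (PLAT), which works best on fibrin. Serpins, which trap a protease by offering it a reactive loop, hold both enzymes in check: SERPINE2 (protease nexin-1) inhibits thrombin, urokinase and plasmin, and SERPINB2 (plasminogen activator inhibitor 2) inhibits urokinase and is largely kept inside cells. SERPINF1 (pigment epithelium-derived factor) and SERPINH1 (HSP47) have the serpin fold without inhibiting proteases: the former is a secreted anti-angiogenic protein and the latter a chaperone of procollagen in the endoplasmic reticulum. Activators and inhibitors of this system are among the proteins that senescent fibroblasts and stromal cells are known to secrete.

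Total counts were between 71275337 and 144204979 per library. All 6 markers of mesenchymal stromal cells looked up (NT5E, THY1, ENG, PDGFRB, COL1A1 and VIM) were expressed, with a summed level of 18367 to 26490 CPM (counts scaled to library size) in the 8 young libraries and 10539 to 20070 in the 8 senescent ones. Of the other markers, KRT5 and CD3E were at 0 in every young library, the 3 epithelial markers together stayed at or under 1.13 CPM and the 3 adipocyte markers at or under 1.44 CPM. The 4 endothelial markers summed to 7.82 to 11.3 CPM in young and 8.44 to 21.8 CPM in senescent libraries, where PECAM1 reached 19.7 CPM, CDH5 at most 0.972 CPM and KDR at most 0.221 CPM, and the 4 leukocyte markers to 1.68 to 2.79 and 2.77 to 5.54 CPM. The part of these in the results was not tested. Replicate 1 stood apart in both senescent groups: its IL6 was 146 CPM (group median 791) in MmC+/GDF11- and 134 CPM (group median 711) in MmC+/GDF11+, its MKI67 was the lowest of each group at 16.4 and 13.7 CPM, and its CDKN1A the highest at 2031 and 2007 CPM. In MmC-/GDF11- and MmC-/GDF11+ replicate 1 also had the highest CDKN1A, at 330 and 375 CPM (group medians 196 and 201). There its IL6 was the highest, at 6.17 and 6.73 CPM (group medians 3.37 and 3.32). Its MKI67 was the lowest in MmC-/GDF11- (77.5 CPM) but not in MmC-/GDF11+ (115 CPM, group median 111). The values of the members are therefore given per library. Without the 4 libraries numbered 1 all 7 members were still called in both MmC comparisons, with log2 fold changes without and with GDF11 of 0.57 and 0.55 for PLAU, 1.22 and 1.03 for PLAT, 1.25 and 1.17 for PLAUR, 3.08 and 3.08 for SERPINE2, 2.44 and 2.38 for SERPINB2, -1.40 and -1.39 for SERPINF1, and -1.41 and -1.40 for SERPINH1. These calls are to be read beside the share of all genes tested that was called, 45.3% and 46.7% with all 16 libraries. That share can differ in the fit without the libraries numbered 1, for which it is not given here. In such bulk RNA, a change in the share of cells that express a gene and a change in the RNA per cell cannot be told apart.

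Since members on both sides of the system were to be compared, the letters before their start sites are shown first, as RefSeq gives them on GRCh38.p14. The 250 bases before the start are printed 5′ to 3′ for 3 genes that were higher after MmC, PLAU, PLAUR and SERPINB2, and for SERPINH1, which was lower. These are the genes whose window ended at the canonical start of the annotation. Capitals mark the letters that matched a motif searched on both strands.
PLAU, chr10:73910882-73911131, plus strand: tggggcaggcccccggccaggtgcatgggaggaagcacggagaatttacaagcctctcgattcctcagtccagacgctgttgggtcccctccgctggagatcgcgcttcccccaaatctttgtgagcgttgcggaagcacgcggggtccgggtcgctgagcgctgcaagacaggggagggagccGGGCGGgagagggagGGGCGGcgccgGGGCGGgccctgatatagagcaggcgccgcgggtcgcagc
PLAUR, chr19:43670170-43670419, minus strand: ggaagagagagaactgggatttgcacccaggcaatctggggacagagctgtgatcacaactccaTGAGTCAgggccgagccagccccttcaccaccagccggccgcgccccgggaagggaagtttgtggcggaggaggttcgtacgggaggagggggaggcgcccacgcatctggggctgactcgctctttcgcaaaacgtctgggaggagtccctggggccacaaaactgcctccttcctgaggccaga
SERPINB2, chr18:63887455-63887704, plus strand: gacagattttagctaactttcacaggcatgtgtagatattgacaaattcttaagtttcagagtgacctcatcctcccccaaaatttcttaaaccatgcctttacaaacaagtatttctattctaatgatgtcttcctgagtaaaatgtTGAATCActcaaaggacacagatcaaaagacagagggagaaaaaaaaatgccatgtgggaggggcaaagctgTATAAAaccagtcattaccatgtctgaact
SERPINH1, chr11:75562003-75562252, plus strand: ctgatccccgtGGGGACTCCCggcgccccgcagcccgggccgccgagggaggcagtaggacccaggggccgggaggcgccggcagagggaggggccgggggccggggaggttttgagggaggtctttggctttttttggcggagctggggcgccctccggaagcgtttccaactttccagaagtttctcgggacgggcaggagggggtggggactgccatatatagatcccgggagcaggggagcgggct
PLAU held 3 copies of the GC box GGGCGG, at -66, -51 and -40 counted from the start, and none of the others. An AP-1 site (TGANTCA) stood in PLAUR at -186 and in SERPINB2 at -102, and SERPINB2 was also the gene with a TATA box (TATAAA), at -30. SERPINH1 held a pair of overlapping matches to the NF-kappaB site (9 letters that open with GGG and close with CC, with a purine, any base and 2 pyrimidines between), at -239 and -238. Over all 34943 windows of the same kind, the AP-1 site was in 6.59%, the GC box in 42.5%, the TATA box in 10.8%, the NF-kappaB site in 10.7% and the E-box CACGTG, which none of the 4 held, in 6.32%. The SERPINB2 window was 37.2% G and C, against 63.2% in PLAUR and 68.8% in PLAU. The window listed for SERPINE2 lay 646 bases from the canonical start of that gene and is not printed, and no window was read for PLAT and SERPINF1.

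The first question was how the system differed between senescent and young MSCs without GDF11. All 7 members differed: PLAU, PLAT, PLAUR, SERPINE2 and SERPINB2 were higher after MmC and SERPINF1 and SERPINH1 were lower (edgeR quasi-likelihood test, Benjamini-Hochberg adjusted p under 0.05). The fold changes ran from 7.11-fold higher (SERPINE2) to 3.63-fold lower (SERPINF1). MmC moved much of the transcriptome, with 45.3% of the genes tested called, 22.9% higher and 22.4% lower, and a median log2 fold change of -0.011 over all genes, so a call by itself sets no member apart. The groups did not overlap for 6 of the 7 members, against 37.3% of all genes, and the exception was PLAU. With GDF11 in both arms the same 5 members were higher and the same 2 lower, where 46.7% of all genes were called, 23.4% higher and 23.3% lower, and none of the 7 overlapped, against 41.5% of all genes. This comparison shares no library with the former. For PLAU without GDF11, where the groups overlapped, the senescent library was above the young library of its number in 4 of 4 pairs. In the other cases the lack of overlap fixes that outcome. The plot of each library's level shows these shifts.

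**Figure D1:**
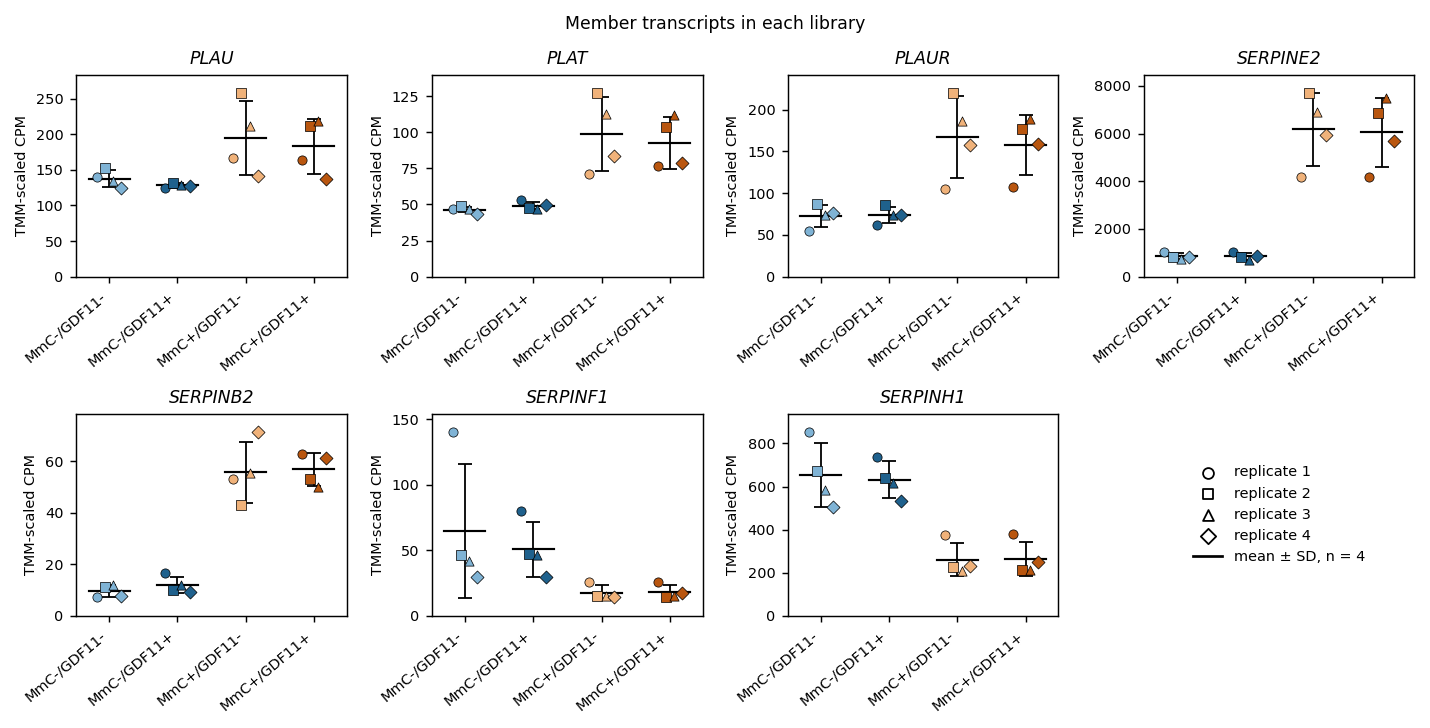
Level of each of the 7 members in every library, in CPM on TMM-scaled library sizes (linear axis from 0), by group. Symbols stand for replicate numbers, and the black line and bar for the mean and SD of 4 libraries. SERPINE2 lay between 704 and 1047 CPM in the young libraries and between 4167 and 7706 CPM in the senescent ones, while for PLAU 1 MmC+/GDF11- library, replicate 4, lay among the young ones.

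Urokinase had the smallest fold change of the 7. PLAU (ENSG00000122861.16, chr10:73909177-73917496, plus strand) stood at 140, 152, 134 and 125 CPM in the 4 replicates of MmC-/GDF11- and at 166, 258, 212 and 141 CPM in those of MmC+/GDF11-. Replicate 4 of the senescent group lay among the young libraries and replicate 2 far above them. The difference was 0.50 on the log2 scale (SE 0.168, edgeR adjusted p = 0.0236), 1.41-fold with a 95% interval of 1.10 to 1.80. With GDF11 the levels were 124, 132, 129 and 127 CPM in young and 164, 212, 219 and 137 CPM in senescent MSCs, which did not overlap, with a log2 fold change of 0.51 (SE 0.168, edgeR adjusted p = 0.0198). The SD of the senescent groups was 51.8 and 39.3 CPM against 11.6 and 3.30 CPM in the young ones.

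The PLAU call rested on few libraries. Without MmC+/GDF11- replicate 2 the log2 fold change was 0.34 (edgeR adjusted p = 0.0952). The edgeR adjusted p was 0.0627 without MmC+/GDF11- replicate 3, 0.0506 without MmC-/GDF11- replicate 3 and 0.0581 without MmC-/GDF11- replicate 4. In the comparison with GDF11 it was 0.0575 without MmC+/GDF11+ replicate 2 and 0.0632 without MmC+/GDF11+ replicate 3. All these fits kept the direction. On the opposite strand the gene C10orf55 covers 915 of the 2949 exonic bases of PLAU. The libraries were made with a strand-marking kit but the strand setting of the counting is not given in the sources used here. C10orf55 was counted at 0.380% to 1.00% of the mean level of PLAU (1.38 CPM in MmC-/GDF11- and 0.767 CPM in MmC+/GDF11-).

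Tissue-type plasminogen activator, the other activator, rose more. PLAT (ENSG00000104368.19, chr8:42174718-42207709, minus strand) stood at 46.9, 48.6, 46.8 and 43.7 CPM in MmC-/GDF11- and at 71.4, 127, 113 and 83.7 CPM in MmC+/GDF11-. The young replicates were tight, with an SD of 2.04 CPM, and the senescent ones were all higher. The log2 difference was 1.09 (SE 0.158, edgeR adjusted p = 5.37e-05), 2.12-fold. With GDF11, PLAT was at 53.0, 47.6, 47.1 and 49.4 CPM in young and at 76.5, 104, 112 and 78.5 CPM in senescent MSCs, again without overlap, and the log2 fold change was 0.91 (SE 0.158, edgeR adjusted p = 0.000239).

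The receptor that holds urokinase on the cell surface rose to a like extent. PLAUR (ENSG00000011422.12, chr19:43646095-43670547, minus strand), whose window with the AP-1 letters is printed above, was at 55.1, 87.0, 73.4 and 76.7 CPM in MmC-/GDF11- and at 105, 220, 187 and 157 CPM in MmC+/GDF11-. Replicate 1 was the lowest of both groups. On the log2 scale it rose by 1.19 (SE 0.213, edgeR adjusted p = 0.000335), 2.29-fold. With GDF11 the levels were 61.7, 86.0, 73.3 and 73.6 CPM against 107, 177, 189 and 158 CPM, 2.14-fold (SE of the log2 value 0.213, edgeR adjusted p = 0.000641), and replicate 1 was again the lowest of both.

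The ratio of the members within a library does not depend on how libraries are scaled. Its size depends on the exon lengths used, while its change between groups does not. The lengths were all annotated exons joined, 2949 bases for PLAU and 7770 for PLAT, which need not match the transcripts present. Before division by length, the mean levels in MmC-/GDF11- were 138 CPM for PLAU and 46.5 CPM for PLAT. Per length of exon, PLAU was the more abundant activator, at 7.85, 8.25, 7.55 and 7.50 times PLAT in MmC-/GDF11- and 6.13, 5.34, 4.95 and 4.43 times PLAT in MmC+/GDF11-. The geometric mean ratio thus fell from 7.78 to 5.18, with no overlap (log2 difference -0.59, exact two-sided permutation test p = 0.0286, the smallest that 4 against 4 libraries allow, adjusted p = 0.0457 over 8 tests). The ratio tests shuffled libraries freely, without regard to the replicate numbers. These were taken to pair the libraries in this comparison, so the p does not allow for that pairing. With GDF11 it fell from 6.87 to 5.18 (log2 difference -0.41, exact permutation p = 0.0286, adjusted p = 0.0457). PLAU to PLAUR fell from 2.88 to 1.77 without GDF11 and from 2.65 to 1.76 with it, each with an exact permutation p of 0.0286 and an adjusted p of 0.0457. In this ratio the groups came close to overlap. Replicate 1 of MmC+/GDF11- was at 2.39 and replicate 4 of MmC-/GDF11- at 2.45. With GDF11, replicate 1 of MmC+/GDF11+ was at 2.3245 and replicate 2 of MmC-/GDF11+ at 2.3256. Transcripts of urokinase thus rose less than those of its receptor and of the other activator.

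For GDF11 the ratio of the activators differed less. In young cells PLAU to PLAT was 6.18, 7.33, 7.22 and 6.80 in MmC-/GDF11+, under every MmC-/GDF11- library. The log2 difference was -0.18 (exact permutation p = 0.0286, again the smallest that this design allows). Its adjusted p was 0.0457 over the 8 tests, 4 of which were for MmC and at that same smallest p, and 0.114 over the 4 tests for GDF11 alone. In senescent cells the 4 ratios with GDF11, 5.66, 5.39, 5.15 and 4.58, lay among those without it (exact permutation p = 1.0, log2 difference 0.0014). GDF11 gave an exact permutation p of 0.571 for PLAU to PLAUR in young and 0.886 in senescent cells. Neither PLAU nor PLAT was itself called for GDF11.

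**Figure D2:**
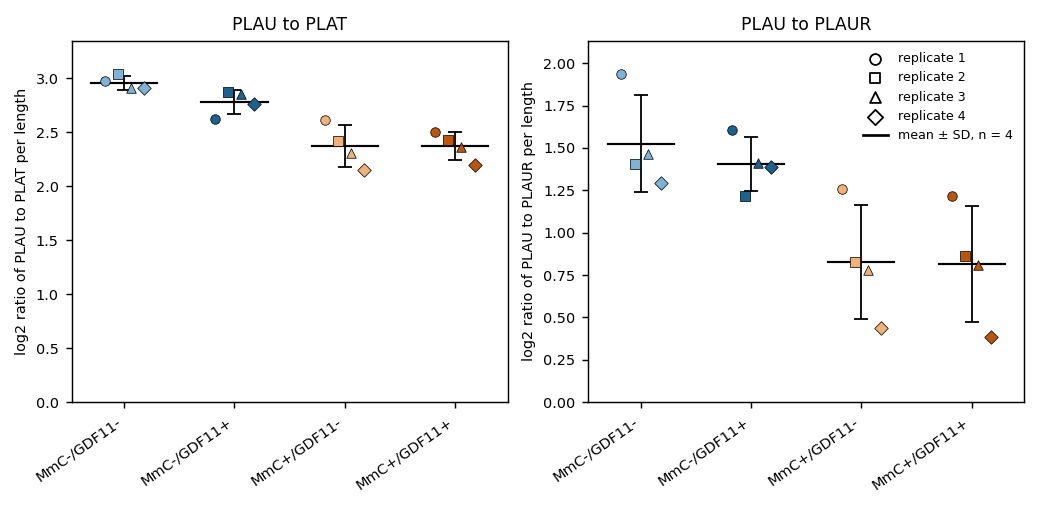
Log2 ratio of PLAU to PLAT (left) and of PLAU to PLAUR (right) per length of exon in each library, on linear axes from 0, by group. Symbols stand for replicate numbers and bars for the mean and SD of 4 libraries. All senescent libraries lay under the young ones of the same GDF11 state in both ratios. For PLAU to PLAUR with GDF11 the nearest values almost met (1.2169 in MmC+/GDF11+ and 1.2176 in MmC-/GDF11+).

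Of the inhibitors, protease nexin-1 had the largest change of the 7 members. SERPINE2 (ENSG00000135919.14, chr2:223975045-224039318, minus strand) stood at 1047, 827, 759 and 839 CPM in MmC-/GDF11- and at 4169, 7706, 6891 and 5923 CPM in MmC+/GDF11-. Its reads made up 0.0782% to 0.104% of all counts in MmC-/GDF11- and 0.382% to 0.767% in MmC+/GDF11-. Replicate 1, the highest young library, was the lowest senescent one. The log2 fold change was 2.83 (SE 0.217, edgeR adjusted p = 1.4e-07), 7.11-fold with a 95% interval of 5.17 to 9.78. With GDF11 the levels were 1035, 812, 704 and 855 CPM in young and 4167, 6843, 7494 and 5703 CPM in senescent cells. There it was 2.83 again on the log2 scale (SE 0.217, edgeR adjusted p = 1.38e-07).

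Plasminogen activator inhibitor 2 rose from a low level. SERPINB2 (ENSG00000197632.9, chr18:63871692-63903888, plus strand) was at 7.39, 11.3, 12.2 and 7.83 CPM in MmC-/GDF11- and at 53.1, 43.0, 55.6 and 71.3 CPM in MmC+/GDF11-. Every senescent library was above every young one. SERPINB2 rose by 2.52 on the log2 scale (SE 0.208, edgeR adjusted p = 2.88e-07), 5.75-fold with a 95% interval of 4.24 to 7.81. With GDF11 it was at 16.6, 10.3, 12.0 and 9.46 CPM in young and at 63.0, 53.3, 49.9 and 61.2 CPM in senescent cells, a log2 fold change of 2.24 (SE 0.206, edgeR adjusted p = 8.04e-07). In replicate 1 of the senescent groups, where IL6 was low, SERPINB2 was at 53.1 and 63.0 CPM, inside or above the range of the other replicates. SERPINE2 and SERPINB2 were the members that still passed when the test was set against a log2 fold change of 1 (glmTreat) in place of 0, in both comparisons.

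The non-inhibitory serpins went the other way. SERPINF1 (ENSG00000132386.11, chr17:1762029-1777565, plus strand) was at 140, 46.8, 42.3 and 30.02 CPM in MmC-/GDF11- and at 26.2, 15.2, 15.5 and 14.5 CPM in MmC+/GDF11-. All senescent libraries were lower, and replicate 1 was the highest of both groups. The log2 fold change was -1.86 (SE 0.431, edgeR adjusted p = 0.0027), 3.63-fold lower, and it was -1.14 without MmC-/GDF11- replicate 1, so its size rested on that library. Without all libraries numbered 1 it was -1.40 (edgeR adjusted p = 2.15e-05). With GDF11 the levels were 79.8, 47.5, 46.6 and 29.4 CPM against 26.2, 14.1, 15.6 and 17.4 CPM, a log2 fold change of -1.47 (SE 0.427, edgeR adjusted p = 0.0107). Of the 31-base words in the exons of SERPINF1, 29.6% also occur on alternate contigs of the genome, against 0% to 4.09% for the other 6 members. Whether the authors' reference held these contigs is not given in the sources used here, and their part in the level was not tested.

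SERPINH1 (ENSG00000149257.16, chr11:75562056-75572783, plus strand), the collagen chaperone, was at 852, 673, 586 and 506 CPM in MmC-/GDF11- and at 374, 227, 209 and 231 CPM in MmC+/GDF11-. All senescent libraries were lower, and replicate 1 was again the highest of both groups. The log2 fold change was -1.33 (SE 0.222, edgeR adjusted p = 0.000178), 2.52-fold lower. With GDF11 it was at 738, 641, 615 and 532 CPM against 380, 212, 213 and 249 CPM, with a log2 fold change of -1.26 (SE 0.222, edgeR adjusted p = 0.000273). COL1A1, a chain of the collagen that SERPINH1 helps to fold, had a median of 5396 CPM in MmC-/GDF11- and 1610 CPM in MmC+/GDF11-, and was also the highest in replicate 1 at 11530 and 5768 CPM.

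The second question, and the main one of the study, was what GDF11 did. No member was called in young or in senescent cells, or for the difference between the responses (edgeR adjusted p = 1.0 for all 7 in both, and 0.99994 for the interaction). Called genes were 0.0% of the 19103 tested in each of these 3 tests, where edgeR gave an unadjusted p under 0.05 for 226, 96 and 172 genes, limma-voom called 0 in each, and DESeq2 called 1 in young cells, VARS1, and 0 in the others. Each of these edgeR counts is under the share of 0.05 of all genes that would be expected with no effect at all. The fit may thus be too cautious to show small effects of GDF11, and the reason was not tested. Libraries did not overlap for 0.89% of genes in young and 0.503% in senescent cells, and for none of the 7 members.

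The 95% intervals say how large a GDF11 effect could have been. For SERPINE2 the log2 fold change was -0.027 in young cells (interval -0.46 to 0.40) and -0.028 in senescent cells (-0.46 to 0.40). For PLAU it was -0.10 (-0.46 to 0.25) and -0.087 (-0.44 to 0.27). For PLAT it was 0.082 (-0.25 to 0.41) and -0.093 (-0.42 to 0.24). PLAUR gave 0.011 (-0.44 to 0.46) and -0.085 (-0.53 to 0.36), and SERPINH1 -0.052 (-0.51 to 0.41) and 0.019 (-0.44 to 0.48). These intervals come from the fit with no term for the replicate number, which may pair the libraries in young cells too (r of 0.0982 to 0.504). In senescent cells, where the numbers pair the libraries, the fit with the number as a block had an SE of 0.0933 in place of 0.210 for PLAUR, 0.108 in place of 0.218 for SERPINH1, 0.217 in place of 0.420 for SERPINF1, 0.113 in place of 0.167 for PLAU and 0.131 in place of 0.156 for PLAT, while those of SERPINE2 (0.206 and 0.203) and SERPINB2 (0.217 and 0.196) were not smaller, and no member was called (edgeR adjusted p = 0.99986 for all 7). The largest estimates were those of SERPINB2 and SERPINF1 in young cells. SERPINB2 had 0.32 (-0.11 to 0.74) there, with replicate 1 rising from 7.39 to 16.6 CPM and 2 of 4 replicate numbers higher, and it was 0.12 without MmC-/GDF11+ replicate 1 and 0.014 without the libraries numbered 1. It had 0.028 (-0.39 to 0.44) in senescent cells. SERPINF1 had -0.35 (-1.24 to 0.54) in young cells, where without MmC-/GDF11- replicate 1 it was 0.36, and 0.036 (-0.86 to 0.93) in senescent cells.

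**Figure D3:**
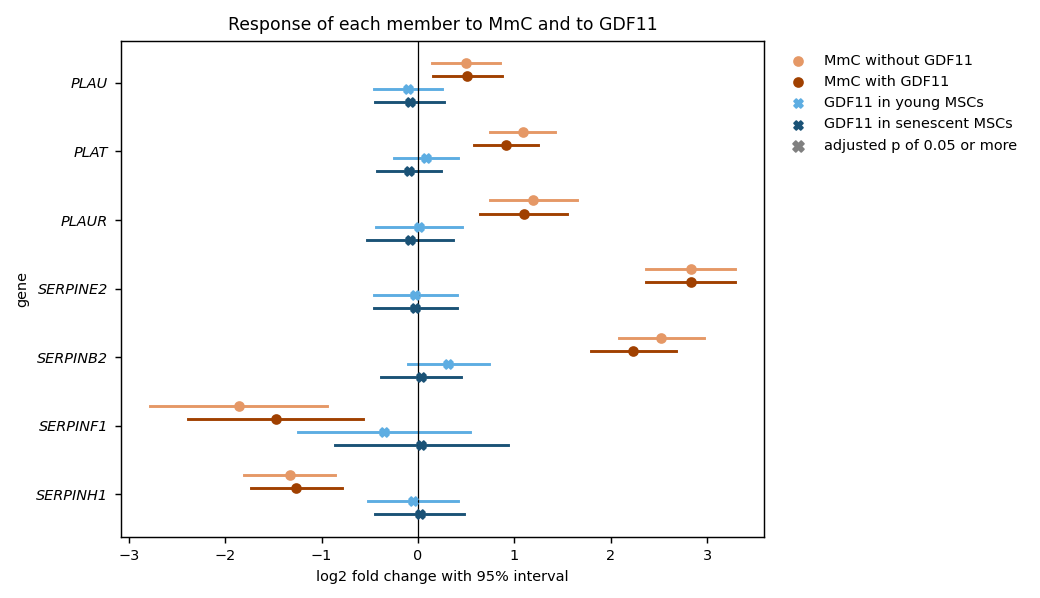
Log2 fold change of each member with its 95% interval for MmC without and with GDF11 and for GDF11 in young and senescent MSCs, from the edgeR fit on all 16 libraries; crosses mark an adjusted p of 0.05 or more. The MmC values ran from -1.86 to 2.83, and all GDF11 intervals held 0.

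Levels of different genes were compared as CPM per kilobase of exon (RPKM, mean ± SD, n = 4), where the order changed with MmC. The order between genes depends on the joined length of all annotated exons, which need not match the transcripts present. In MmC-/GDF11- SERPINH1 (104 ± 23.6) and SERPINE2 (96.9 ± 13.9) led and overlapped each other. PLAU followed at 46.7 ± 3.94, then SERPINF1 at 21.7 ± 17.0, whose libraries reached into those of both neighbours, and PLAUR at 16.4 ± 2.98. PLAT (5.99 ± 0.263) and SERPINB2 (3.54 ± 0.889) were the lowest and did not overlap. In MmC+/GDF11- SERPINE2 stood alone at 689 ± 170 RPKM. PLAU at 65.9 ± 17.6, SERPINH1 at 41.4 ± 12.2, PLAUR at 37.5 ± 10.9, SERPINB2 at 20.3 ± 4.28 and PLAT at 12.7 ± 3.31 followed, where each overlapped the next down to PLAT. SERPINF1 was last at 5.97 ± 1.86 and did not overlap PLAT. With GDF11 the order was the same in both young and senescent cells, the first being SERPINH1 at 101 ± 13.5 and SERPINE2 at 676 ± 163 RPKM.

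**Figure D4:**
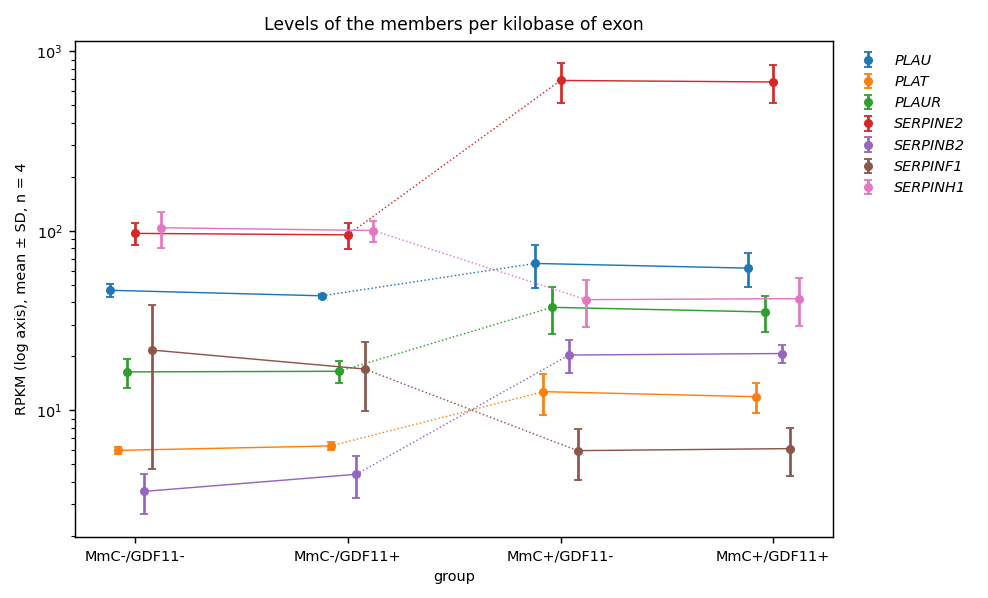
Mean level of each member in RPKM (logarithmic axis) in the 4 groups, with SD over 4 libraries; solid lines join groups that differ in GDF11 and dotted lines lead from young to senescent cells. SERPINE2 rose to 689 RPKM while SERPINH1 fell from 104 to 41.4 RPKM.

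Some pairs of members varied together inside groups and others in opposite directions or with little relation, which the group means do not show. After the group mean was taken from each log2 level, the highest Pearson r over the 16 libraries were 0.86 for PLAU with PLAT, 0.84 for PLAT with SERPINE2 and 0.85 for SERPINF1 with SERPINH1. Without the libraries numbered 1 (12 left) these were 0.98, 0.85 and 0.86. PLAUR with SERPINH1 gave -0.84 over 16 libraries but 0.12 over 12, so that relation rested on the libraries numbered 1. Over 16 libraries PLAUR with SERPINF1 gave -0.69, PLAT with SERPINH1 -0.57 and SERPINE2 with SERPINF1 -0.048. SERPINB2 gave -0.44 to 0.19 with the other members over 16 libraries and -0.81 with SERPINE2 over 12. These are descriptions of few libraries that share their scaling, with no test. The libraries are also not independent, as same-numbered senescent libraries deviated together over all genes (r of 0.448 to 0.818).

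Likeness to each member was measured as the Pearson r of log2 CPM over the 16 libraries, out of 13967 protein-coding genes. The 16 libraries span the gap between young and senescent cells, so these values are a description. SERPINE2 was nearest to CH25H (cholesterol 25-hydroxylase), PARM1 and IL1B (interleukin-1 beta), each with an r of 0.996. PLAUR was nearest to CSRNP1, AZIN2 and ADGRF4 (0.992, 0.991 and 0.988), and PLAT to SLC16A6, PGF (placental growth factor) and ESM1 (endocan; 0.988, 0.987 and 0.986). PLAU had the least close neighbours, GNB5, DLG4 and TMEM44 (0.972, 0.952 and 0.950). SERPINB2 was nearest to SEC11C, EMC7 and UGCG (0.990, 0.983 and 0.983). SERPINF1 was nearest to WNT2 (a Wnt ligand), MFAP4 and EML1 (0.979, 0.974 and 0.970), and SERPINH1 to RAB7B, SLC12A8 and TMEM130 (0.992, 0.989 and 0.989).

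The rest of the serpin family was taken as every other gene whose symbol starts with SERPIN. Of these 38, pseudogenes included, 15 had enough reads to be tested, and 7 were higher and 3 lower after MmC without GDF11, and 6 higher and 4 lower with GDF11. Their median log2 fold change was 0.78 and 0.67, beside -0.011 and -0.010 over all genes, and the share called is to be read beside the 45.3% and 46.7% of all genes. Some calls were near the floor: SERPINA9 higher in both comparisons, SERPINA1 higher without GDF11 and SERPINA5 lower with it. Their means were 0.271, 0.0794 and 0.0966 CPM. SERPINA5 lost its call with DESeq2 (adjusted p = 0.101) and with no filter on low counts (edgeR adjusted p = 0.142).

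SERPIND1 (heparin cofactor II, a thrombin inhibitor) had the largest fold change of the other serpins named, from 0.182 to 0.383 CPM in MmC-/GDF11- to 0.912, 10.1, 9.24 and 5.93 CPM in MmC+/GDF11-. Its log2 fold change was 4.45 (edgeR adjusted p = 0.00013), and it stayed low in replicate 1. SERPINB4 rose by 2.67 (edgeR adjusted p = 0.00619), but in replicate 1 of MmC+/GDF11- it was at 0.932 CPM, among the young libraries at 0.767 to 1.42 CPM, and limma-voom did not call it (adjusted p = 0.0704). SERPINI1 (neuroserpin, an inhibitor of tissue-type plasminogen activator) rose by 0.89 (edgeR adjusted p = 0.00116). SERPINB6 fell by 0.92 on the log2 scale (edgeR adjusted p = 8e-05). SERPINB7 was also called higher and SERPINB1 and SERPINB9 lower in both comparisons. With the replicate block, SERPINB3 and SERPINB8 were also called higher without GDF11, at 0.99 and 0.24 (edgeR adjusted p = 0.00307 and 0.0233).

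Of 20 genes for binding, activation and clearance of plasminogen and for coagulation on the cell surface, 17 were tested, and 8 were higher and 5 lower in each MmC comparison (median log2 fold change 0.26 and 0.38), beside 22.9% higher and 22.4% lower of all genes without GDF11 and 23.4% and 23.3% with it. PLG, plasminogen itself, had at most 2 reads in any library and 6 in all, so its transcript was not measurable at this depth. ANXA2, which with S100A10 forms a plasminogen receptor on the cell surface, fell from 3559, 4828, 3938 and 3289 CPM in MmC-/GDF11- to 2498, 1526, 1542 and 1323 CPM in MmC+/GDF11-. Its log2 fold change was -1.18 (edgeR adjusted p = 0.000677) and -1.16 with GDF11 (edgeR adjusted p = 0.000743). S100A10 had -0.98 (edgeR adjusted p = 0.0168) and -0.82 (edgeR adjusted p = 0.0392), overlapping in both, with replicate 1 at 990 and 1061 CPM in senescent cells. That call was lost without MmC-/GDF11- replicate 2 or without replicate 2, 3 or 4 of MmC+/GDF11- (edgeR adjusted p = 0.0516 to 0.0548), and with GDF11 without replicate 1, 2 or 3 of MmC-/GDF11+ or replicate 2, 3 or 4 of MmC+/GDF11+ (0.0562 to 0.119). It was also lost with no filter on low counts (0.0600 and 0.117). It held without the libraries numbered 1 (-1.35 and -1.18). PLGRKT, another plasminogen receptor, had -0.24 and -0.25 and was not called (edgeR adjusted p = 0.109 and 0.0998), but without GDF11 it was called lower with the replicate number as a block (edgeR adjusted p = 0.0215). That block, in the comparison where the numbers pair the libraries, also called HGF (hepatocyte growth factor) lower at -0.67 (edgeR adjusted p = 0.000151) and LRP1, a clearance receptor of protease-serpin complexes, higher at 0.28 (edgeR adjusted p = 0.0431). With the block 9 genes of the list were higher and 7 lower, where 11066 of the 19103 genes tested were called in all.

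TFPI2 (tissue factor pathway inhibitor 2, which inhibits plasmin) rose from 51.9, 54.7, 54.1 and 87.9 CPM in MmC-/GDF11- to 528, 4214, 4167 and 2976 CPM in MmC+/GDF11-. Its log2 fold change was 5.58 (edgeR adjusted p = 1.58e-05), with replicate 1 far under the rest. THBD (thrombomodulin) was at 6.38 CPM in replicate 1 of MmC+/GDF11- and 30.9 to 40.7 CPM in the others, against 7.30 to 12.1 CPM in young cells. It was called at 1.74 (edgeR adjusted p = 0.0168), limma-voom did not call it (adjusted p = 0.0877), nor did edgeR with no filter on low counts (adjusted p = 0.0636), and it was 2.00 without the libraries numbered 1 (edgeR adjusted p = 1.77e-05). With GDF11 its log2 fold change of 1.69 lost the call without MmC-/GDF11+ replicate 3 (edgeR adjusted p = 0.0559) or MmC+/GDF11+ replicate 4 (0.0541). TFPI, which inhibits the tissue factor pathway, rose by 1.22 (edgeR adjusted p = 2.79e-07) and VLDLR, a receptor that takes up protease-serpin complexes, by 1.49 (edgeR adjusted p = 0.000342). A2M, the broad protease inhibitor, fell by 1.44 (edgeR adjusted p = 0.00253) at a low level of at most 3.35 CPM. LRPAP1, F3, MST1 and MRC2 were also called higher and F2R and ENO1 lower in both comparisons. Without GDF11, MRC2 (0.37) lost its call without replicate 2, 3 or 4 of MmC-/GDF11- or replicate 1, 2 or 3 of MmC+/GDF11- (edgeR adjusted p = 0.0598 to 0.106). MST1 (0.44) lost it there without replicate 2, 3 or 4 of MmC-/GDF11- or replicate 3 or 4 of MmC+/GDF11- (0.0583 to 0.0911), and with GDF11 without MmC-/GDF11+ replicate 2 (0.0510) or MmC+/GDF11+ replicate 4 (0.0548). F3 with GDF11 (0.60) lost it without MmC+/GDF11+ replicate 1 (edgeR adjusted p = 0.0536). All 3 were called without the libraries numbered 1.

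SERPINH1 fell while most of its neighbours in procollagen folding did not. Of 20 genes for hydroxylation, isomerisation and folding of procollagen in the endoplasmic reticulum, all tested, 10 were higher and 1 lower after MmC without GDF11 and 12 higher and 1 lower with GDF11 (median log2 fold change 0.31 and 0.40), to be read beside the same shares of all genes, 22.9% higher and 22.4% lower without GDF11 and 23.4% and 23.3% with it. The gene that was lower was P3H1, a prolyl 3-hydroxylase, at -0.36 (edgeR adjusted p = 0.0208), a call lost without MmC-/GDF11- replicate 1 (0.0807) or without replicate 3 (0.0727) or 4 (0.0637) of MmC+/GDF11-. With GDF11 it was -0.31 (edgeR adjusted p = 0.0431), lost without any library other than replicate 1 of MmC+/GDF11+ (0.0549 to 0.154), and with DESeq2 (adjusted p = 0.0587). The lower genes numbered 3 in both comparisons without the libraries numbered 1. These were P3H1, then P3H2, a prolyl 3-hydroxylase too, at -0.54 and -0.57 (edgeR adjusted p = 0.000128 and 8.66e-05), and CALR (calreticulin), at -0.32 and -0.33 (0.0209 and 0.0161). P3H2 was also called lower without MmC+/GDF11- replicate 1 alone (edgeR adjusted p = 0.0134), and P3H2 and CALR without MmC+/GDF11+ replicate 1 alone (0.0186 and 0.0349). PLOD2 (lysyl hydroxylase 2) rose from 365, 398, 516 and 536 CPM in MmC-/GDF11- to 1506, 1594, 1564 and 1138 CPM in MmC+/GDF11-, with a log2 fold change of 1.68 (edgeR adjusted p = 9.06e-07). P4HA3 rose by 3.62 (edgeR adjusted p = 0.000287) from at most 0.351 CPM, P4HA2 by 0.78 (edgeR adjusted p = 0.00327), PLOD1 by 0.75 (edgeR adjusted p = 3.2e-05) and FKBP14 by 0.61 (edgeR adjusted p = 0.000259). FKBP10, P4HB, CANX, HSPA5 and KDELR2 were also called higher in both comparisons, and MIA3 and CRTAP with GDF11. With the replicate block MIA3 and CRTAP were called higher without GDF11 as well, at 0.34 and 0.28 (edgeR adjusted p = 0.000745 and 0.0028). KDELR2, at 0.20 and 0.23, lost its call in both comparisons without the libraries numbered 1 (edgeR adjusted p = 0.0747 and 0.0536), and without GDF11 on leaving out replicate 3 or 4 of MmC-/GDF11- or replicate 1, 2 or 3 of MmC+/GDF11- (0.0704 to 0.101). MIA3 with GDF11 lost it without replicate 1, 2 or 3 of MmC-/GDF11+ or replicate 3 or 4 of MmC+/GDF11+ (0.0525 to 0.131). GDF11 called none of the genes of the 3 lists in young or senescent cells, as it called 0.0% of all genes.

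**Figure D5:**
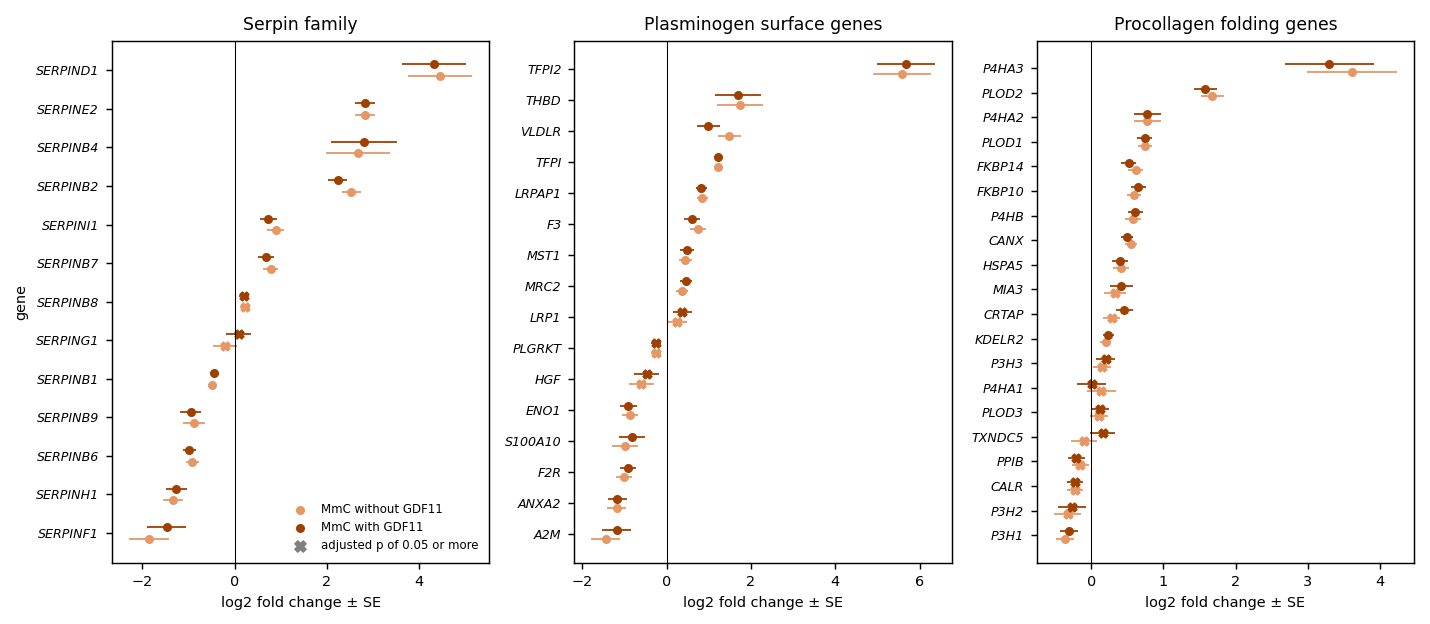
Log2 fold change with its SE of the tested genes described here with a mean of at least 1 CPM in the serpin family (left), the plasminogen and coagulation genes of the cell surface (middle) and the procollagen folding genes (right), for MmC without and with GDF11; crosses mark an adjusted p of 0.05 or more. TFPI2 stands out at 5.58, and SERPINH1 at -1.33 lies far to the left of the values of the procollagen folding genes, the lowest of which was -0.36.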

How the data were processed

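Poly(A)-enriched RNA of ASC52telo was sequenced in 16 libraries, 4 biological replicates per group, with groups taken from the sample titles. Per the study's methods and the submitters' processing notes, the authors aligned reads to hg38 with HISAT2 2.2.1, counted them per gene with featureCounts 2.0.1 on GENCODE annotation and deposited raw counts without normalization; the handling of strand and of reads with several alignments is not given in the sources used here. Total counts were 71275337 to 144204979 per library. Gene symbols and positions came from a newer GENCODE release, which matched 60463 of the 60649 gene IDs.

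Counts were tested in R 4.3.3 with edgeR 4.0.16: filterByExpr (minimum count 10, minimum total 15), TMM scaling, the robust quasi-likelihood test with 1 mean per group over all 16 libraries and no term for the replicate number, and Benjamini-Hochberg adjustment over 19103 genes at 0.05. The step was tested on simulated data. CPM used TMM-scaled library sizes, and RPKM the union of exons. Ratios were tested with SciPy 1.17.1, with libraries taken as unpaired. DESeq2 1.42.0 and voom of limma 3.58.1 were alternatives, beside other scaling, filters, the replicate number as a block and each library left out. Same-numbered libraries deviated together, with an r of 0.113 or more in every pair when MmC was compared without GDF11 and 0.448 or more when GDF11 was compared in senescent cells, and the numbers were taken to pair those libraries. For MmC with GDF11 the r of replicates 1 to 4 was 0.311, 0.160, 0.0293 and 0.266. For GDF11 in young cells it was 0.504, 0.264, 0.0982 and 0.502. All these were positive too, so the numbers may also pair those libraries, which the main fit does not use. All replicate pairs differed by at least 15.3 times the sampling noise.

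The members and the gene lists were chosen with earlier results of these data known. Named with values were the members, and per list at most 5 genes called in either MmC comparison at a mean of at least 1 CPM, by size of change; PLG, PLGRKT, ANXA2, S100A10, the 3 nearest genes by correlation of log2 CPM (prior count 2), and CDKN1A, IL6 and MKI67 were named in any case. In the gene lists, 1 gene was counted and is otherwise not reported here. VARS1 and P3H1 were named for a count of 1, PECAM1, CDH5, KDR, KRT5 and CD3E as markers, and COL1A1, HGF, LRP1, P3H2, CALR, SERPINB3, SERPINB8, SERPINA1, SERPINA5 and SERPINA9 after their values were seen. Nothing says that the replicates came from separate donors, so p-values measure the spread between cultures of a single line. The paper lists batch effects from technical issues among its limitations, so that spread can hold technical variation too. Which libraries these affected is not given.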

Additional observations from a re-analysis of the deposited data

Results flagged for a closer look

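Of 28 sets of 4 libraries (7 members in 4 groups), 3 had a library far from the other 3 by Dixon's test, where chance marks about 1 set in 20. Each time it was replicate 1. SERPINF1 stood at 140 CPM in replicate 1 of MmC-/GDF11-, against 30.02 to 46.8 CPM in the others. It stood at 26.2 CPM in replicate 1 of MmC+/GDF11-, against 14.5 to 15.5 CPM. SERPINH1 stood at 374 CPM in replicate 1 of MmC+/GDF11-, against 209 to 231 CPM. COL1A1 was also the highest in these libraries, at 11530 and 5768 CPM, and CXCL8 in that senescent library was 1011 CPM beside a group median of 4016 CPM. What sets replicate 1 apart was not tested. The paper reports batch effects in this series but does not tie them to a replicate.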

How the results depend on the processing

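Of 266 alternative values of the members for MmC, 250 kept their direction and call, 16 kept the direction and lost the call, and 0 reversed. Of the 16, 10 came from the test against a log2 fold change of 1, which called 1294 genes without and 1235 with GDF11 in place of 8655 and 8926, and 2 members in each comparison, and 6 were PLAU with a library left out. That test called 4 of the 19 serpins tested (members included), 1 of the 17 surface genes and 2 of the 20 procollagen folding genes in each comparison, and under the other alternatives the genes called in each list, both directions together, stayed within 1.5 times the main number. The procollagen folding genes called lower, 1 in each comparison, were 3 without the libraries numbered 1. With GDF11 they were 0 with RLE or upper-quartile scaling, DESeq2, no filter, at least 10 counts in every library or only the libraries compared, and without GDF11 0 to 2 with 1 library left out. With the replicate block the calls of the members for MmC did not change, where 11066 and 11267 genes were called in all. The numbers were not taken to pair MmC with GDF11, though every r there was positive. With GDF11 the block also called PLGRKT (edgeR adjusted p = 0.0163), HGF (0.000947), LRP1 (0.0111), CALR (0.0444), SERPINB3 (0.00853) and SERPINB8 (0.0460). Without the libraries numbered 1, edgeR called LRP1 (adjusted p = 0.0244 and 0.0331) and SERPINB3 (0.00503 and 0.00590) higher without and with GDF11. DESeq2 called 1 gene for GDF11 in young MSCs, and leaving out 1 library at a time called 0 to 1. All 448 values of the members for GDF11 and the interaction stayed uncalled, and 67 near 0 changed sign. Leaving out libraries gave these ranges of the log2 fold change. In young MSCs they were -0.10 to 0.11 for PLAUR, -0.14 to 0.079 for SERPINE2, -0.66 to 0.36 for SERPINF1 and -0.15 to 0.10 for SERPINH1. In senescent MSCs they were -0.21 to 0.083 for PLAU, -0.22 to 0.055 for PLAT, -0.25 to 0.078 for PLAUR, -0.17 to 0.12 for SERPINE2, -0.076 to 0.17 for SERPINB2, -0.18 to 0.28 for SERPINF1 and -0.20 to 0.25 for SERPINH1. For the interaction they were -0.11 to 0.19 for PLAU, -0.27 to 0.068 for PLAUR, -0.15 to 0.14 for SERPINE2, -0.32 to 0.70 for SERPINF1 and -0.16 to 0.30 for SERPINH1. The log2 ratio moved over -0.20 to 0.018 for PLAU to PLAUR with GDF11 in young MSCs, and over -0.073 to 0.082 for PLAU to PLAT and -0.14 to 0.14 for PLAU to PLAUR in senescent MSCs. With 3 against 4 libraries no ratio could pass. The interaction of SERPINE2 was -0.0012 and became 0.0035 with RLE scaling, 0.013 with upper-quartile scaling, 0.015 with no filter, 0.0065 with at least 10 counts in every library, 0.0035 with DESeq2 and 0.00024 with the replicate block. The block without the libraries numbered 1, chosen after seeing the data, gave -0.030 for PLAUR, 0.045 for SERPINF1 and 0.018 for SERPINH1 with GDF11 in young MSCs, -0.039 for SERPINB2 in senescent MSCs, and for the interaction -0.027 for PLAU and 0.0027 for SERPINE2. The cause was not tested. With 4 libraries a group, SERPINF1 was the member with the widest intervals.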
